A study of Mus musculus with 76 samples.

Results

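The genes described here encode the killing machinery that cytotoxic lymphocytes store in their granules: the granzymes Gzma, Gzmb, Gzmc, Gzmd, Gzme and Gzmf, the pore-forming protein perforin (Prf1), and Nkg7, a granule membrane protein of natural killer (NK) cells and cytotoxic T cells. They were chosen by symbol, as 8 genes of the 18194 that the array measured with a probe set naming 1 gene, and each was read from its probe set with the highest mean. RNA of 76 tumour samples from C57BL/6 mice was measured on Affymetrix arrays, 1 array per sample, in 13 groups. The tumours came from a model first driven by a doxycycline-inducible HER2 oncogene carrying V659E. After doxycycline was withdrawn and that oncogene was silent, 1 of 13 genes, gene forms or combinations was put in to keep the tumour growing. This origin is shared by all groups.

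The groups carried ErbB3, FAK1, FGFR2aIIIb, FGFR2aIIIc, FGFR3, HER2, MAP3K11, MAP3K7, PIP5K1B, RONd160, RON+MSP, RSK2 or TNK2. The label RON+MSP names the receptor RON together with its ligand MSP. Every group had 6 arrays except FAK1, which had 4. The 6 MAP3K11 arrays came from mice labelled with cachexia, the wasting of muscle and fat, and the other 70 from mice labelled as free of it, so that the introduced gene and cachexia cannot be told apart. Titles add T1, T2 or T3 without saying what that stands for, and the labels give no age, sex or immune status of the hosts. Labels call the samples of a group biological replicates without naming animals.

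Granzymes are serine proteases that enter a target cell through pores made by perforin and cut proteins inside it. Granzyme A and granzyme B are made by both NK cells and cytotoxic T cells, whereas the mouse granzymes C, D, E and F belong to a family that strongly activated lymphocytes and uterine NK cells are known to express. In the mouse, Gzmb to Gzmf lie side by side with the mast cell protease genes, and Gzma, Prf1 and Nkg7 lie on other chromosomes. In bulk tumour RNA, fewer cells of a type and less RNA per cell cannot be told apart.

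In the RefSeq annotation of GRCm38.p6 the order along chromosome 14 is Cma1, Cma2, Mcpt1, Mcpt2, Mcpt9, Mcpt4, Mcpt8, Ctsg, Gzme, Gzmd, Gzmg, Gzmn, Gzmf, Gzmc and Gzmb. Gzma lies on chromosome 13, Prf1 on chromosome 10 and Nkg7 on chromosome 7. The 250 bases before the start of transcription of the 5 clustered members are shown because these genes moved partly together and partly apart, and because their starts are near copies of each other. They were taken from RefSeq's promoter table of GRCm38.p6 and are printed 5′ to 3′ on the gene's own strand. Capitals mark the letters TGTGGT or their complement ACCACA, the core that RUNX factors are known to bind, and TGACGTCA, the palindrome known as the cAMP response element.
Gzmb (chr14:56262335-56262584, minus strand): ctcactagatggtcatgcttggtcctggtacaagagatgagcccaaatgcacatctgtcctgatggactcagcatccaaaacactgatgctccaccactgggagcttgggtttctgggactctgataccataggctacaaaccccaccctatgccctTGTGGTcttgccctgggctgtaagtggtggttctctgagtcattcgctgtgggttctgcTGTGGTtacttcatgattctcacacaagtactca
Gzmc (chr14:56234658-56234907, minus strand): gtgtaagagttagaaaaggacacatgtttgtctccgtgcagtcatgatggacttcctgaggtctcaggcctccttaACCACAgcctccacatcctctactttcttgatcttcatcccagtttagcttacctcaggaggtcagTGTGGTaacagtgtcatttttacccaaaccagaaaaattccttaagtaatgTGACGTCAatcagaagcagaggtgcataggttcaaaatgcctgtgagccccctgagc
Gzmf (chr14:56211408-56211657, minus strand): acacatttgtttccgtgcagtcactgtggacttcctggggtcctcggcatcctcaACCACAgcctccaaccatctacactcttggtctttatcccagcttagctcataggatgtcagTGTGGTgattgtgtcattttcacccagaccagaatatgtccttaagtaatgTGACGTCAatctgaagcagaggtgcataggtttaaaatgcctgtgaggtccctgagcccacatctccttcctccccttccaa
Gzmd (chr14:56132594-56132843, minus strand): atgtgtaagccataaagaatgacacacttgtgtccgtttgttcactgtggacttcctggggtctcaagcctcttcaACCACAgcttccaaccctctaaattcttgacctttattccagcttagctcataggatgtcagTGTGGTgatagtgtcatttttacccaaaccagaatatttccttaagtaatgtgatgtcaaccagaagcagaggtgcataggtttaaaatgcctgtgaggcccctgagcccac
Gzme (chr14:56120626-56120875, minus strand): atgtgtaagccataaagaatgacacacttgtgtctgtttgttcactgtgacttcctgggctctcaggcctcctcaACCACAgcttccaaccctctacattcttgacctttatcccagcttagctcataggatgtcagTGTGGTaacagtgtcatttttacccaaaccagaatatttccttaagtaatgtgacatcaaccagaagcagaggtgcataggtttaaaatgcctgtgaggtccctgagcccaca

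The starts of Gzmc, Gzmd, Gzme and Gzmf were 86.0 to 95.6% identical in pairwise alignments with free ends, with Gzmd and Gzme the closest at 95.6% over 249 aligned bases. Gzmb aligned with those 4 over only 110 to 168 bases, at 72.0 to 79.5%. TGTGGT was found on either strand at 2 places in each of the 5 sequences, whereas 14% of the 32851 promoters in the table held it at all in their 250 bases. TGACGTCA was found in Gzmc and Gzmf, and in 1.55% of all promoters, but not in Gzmb, Gzmd or Gzme, whose window lacks these letters. The table's start for Gzmc lies inside the annotated span of that gene, so another start may be in use. A match of letters says nothing of whether a factor binds there.

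All 8 genes passed the filter on low values, which asked for a level above the 40th percentile of its array (4.68 to 4.86 on the log2 scale) in at least 4 arrays. Levels here are the deposited log2 values of a probe set. Because a probe set's brightness depends on its sequence, levels were compared between arrays and never between genes. Gzmc and Gzme lay above that percentile in 76 arrays, Gzma in 75, Gzmb in 74 and Gzmd in 71, whereas Nkg7 did so in 50, Gzmf in 48 and Prf1 in 32. Prf1 thus sat near the low end of the array's range in most tumours. A further Prf1 probe set never rose above the filter level (3.9 to 4.69) and did not follow the first (r = 0.03 over the arrays). The 2 probe sets of Gzmd agreed (r = 1.0), while Gzme was read by a probe set that can cross-react, and a probe set shared by Gzme and Gzmd followed Gzme (r = 0.99) more than Gzmd (0.86). The signals of these near-identical genes are therefore not fully separable.

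The array medians were 5.45 to 5.56, no 2 arrays held identical values, and the epithelial keratin Krt8 (10.42 to 13.35) and the leukocyte gene Ptprc (9.05 to 11.25) were high in all 76. The mouse probe set of the introduced gene was not highest in its own group in any of the 12 groups where it was measured, so these values gave no check on the group labels. Matching arrays inside each group on their median levels over the 19 autosomes gave 38 pairs, with a median r over the autosomes of 0.957 in the pairs and 0.161 for the remaining combinations of a group. The pairs were chosen for this likeness, so a higher r inside them was fixed by the matching. Every array was placed in a pair, also where the match was weak, with r as low as 0.473 in 1 MAP3K11 pair. Paired arrays always had different T labels. The granzymes followed these pairs as well: the median difference within a pair was 0.40 for Gzmc and 0.57 for Gzma, against 1.42 and 1.15 for unpaired arrays of that group. Paired arrays may thus not be independent tumours, and each comparison below is also given with the pairs as a random block, whose correlation was estimated at 0.628.

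Each granzyme spanned a wide range from array to array. Gzmd ran from 3.51 to 10.57 with a median of 7.41 over the 76 arrays, and both extremes came from ErbB3 tumours. Gzmf ran from 3.35 to 10.39 with a median of 5.52, and Gzme from 5.36 to 11.01 with a median of 7.75. Gzma lay between 4.77 and 10.25, Gzmb between 4.74 and 9.85, and Gzmc between 4.95 and 10.35. Nkg7 spanned 4.03 to 7.87 and Prf1 only 4.23 to 6.86. In 15 arrays all 8 genes were above their own median, and in 15 others all 8 were at or below it, so that 30 of the 76 arrays were uniformly high or uniformly low.

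The 4 FAK1 arrays split between their pairs, with all 8 genes above their median in one pair and 3 of 8 in each array of the other. Gzma was at 10.25 and 9.64 in one pair (T1 replicate 1 and T2 replicate 1) and at 5.94 and 5.06 in the other. Gzmf was at 9.81 and 9.13 against 5.90 and 5.80, Prf1 at 6.46 and 6.11 against 4.39 and 4.64, and Nkg7 at 7.17 and 6.46 against 4.58 and 4.31. Gzme, by contrast, was at 8.74 and 8.57 against 8.39 and 8.30 in the same arrays. The NK cell receptor gene Ncr1 followed the first 4 genes, at 6.49 and 5.98 against 4.47 and 4.36. Gzme was thus nearly level across tumours in which Gzma was far apart.

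**Figure D1:**
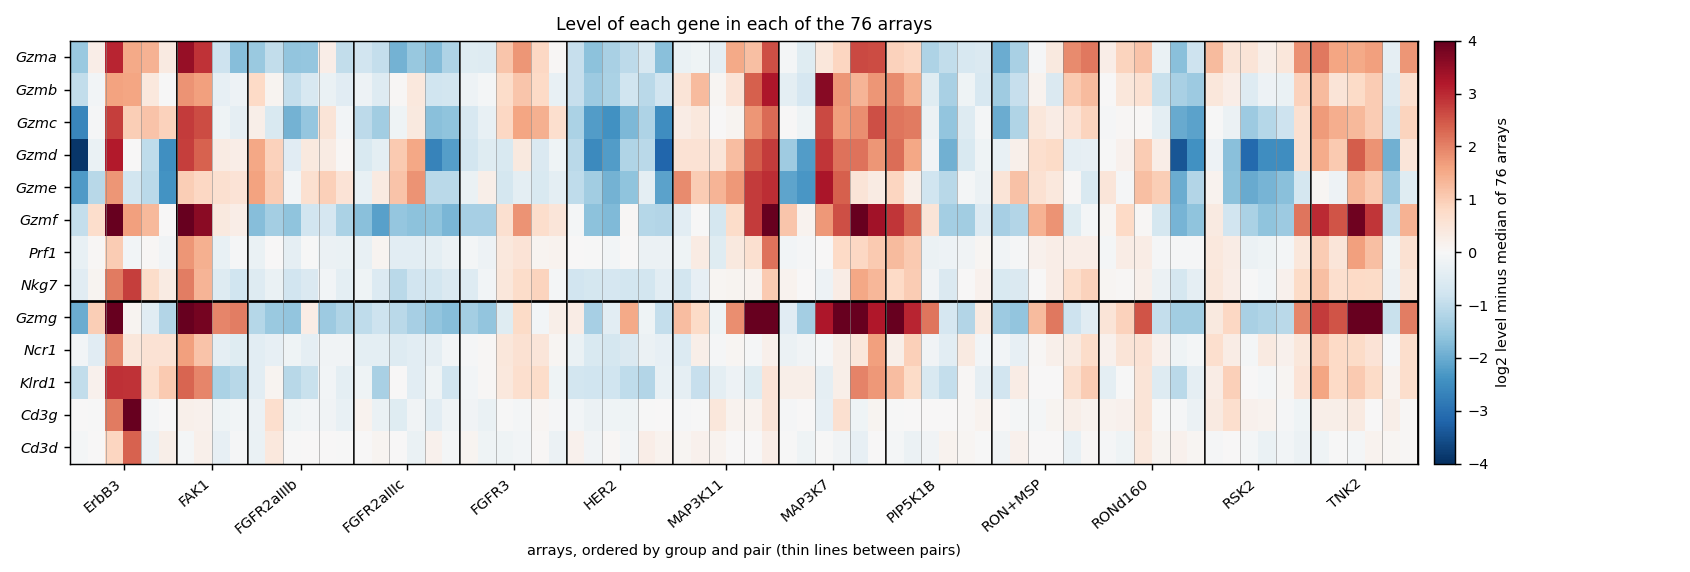
Heat map of the 8 genes (upper rows) and of Gzmg, the NK cell genes Ncr1 and Klrd1 and the T cell genes Cd3g and Cd3d (lower rows) in the 76 arrays, ordered by group and pair; colour is the log2 level minus the gene's median over all arrays, cut off at 4 units either way. Arrays of a pair mostly share a colour, the HER2 arrays are pale or blue for most genes, and Cd3g and Cd3d stand out in 1 ErbB3 array.

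Averaged over groups, the order of the groups differed from gene to gene. Here n counts arrays, and paired arrays may not be independent tumours. Gzma was highest in TNK2 (8.13 ± 0.88, SD, n = 6), followed by MAP3K7 (7.75 ± 1.34, n = 6) and FAK1 (7.72 ± 2.60, n = 4), and lowest in PIP5K1B (6.47 ± 0.92), FGFR2aIIIb (5.71 ± 0.69), HER2 (5.54 ± 0.41) and FGFR2aIIIc (5.40 ± 0.45). Gzmb was highest in MAP3K11 (7.54 ± 1.23) and MAP3K7 (7.44 ± 1.59) and lowest in HER2 (5.15 ± 0.27). Gzmc was highest in MAP3K7 (9.0 ± 1.23) and lowest in HER2 (5.65 ± 0.57). These 3 genes share HER2 near or at the bottom, with a small spread.

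Gzmd was highest in FAK1 (8.84 ± 1.33) and MAP3K11 (8.75 ± 1.02) and lowest in RSK2 (5.86 ± 1.46) and HER2 (5.53 ± 0.89). Gzme was highest in MAP3K11 (9.71 ± 0.77), followed by FGFR2aIIIb (8.53 ± 0.57), and lowest in RSK2 (6.45 ± 0.84) and HER2 (6.34 ± 0.62). Gzmf was highest in MAP3K7 (7.69 ± 1.45), FAK1 (7.66 ± 2.11) and TNK2 (7.64 ± 1.70) and lowest in FGFR2aIIIb (4.30 ± 0.43) and FGFR2aIIIc (3.78 ± 0.23). FGFR2aIIIb therefore ranked second for Gzme and next to last for Gzmf, and FGFR2aIIIc was in the middle for Gzme (7.89 ± 1.17) and last for Gzmf. Prf1 was highest in TNK2 (5.49 ± 0.64) and lowest in FGFR2aIIIc (4.42 ± 0.21), and Nkg7 highest in ErbB3 (6.04 ± 1.24) and lowest in HER2 (4.44 ± 0.13).

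Steps between neighbours in these orders were mostly smaller than the larger SD of the 2 groups. For Gzma, Gzmb, Gzmd, Prf1 and Nkg7 all 12 steps between neighbouring group means were smaller than that SD. For Gzmc, Gzme and Gzmf 11 of 12 were. Steps between sorted neighbours are small by nature, so these counts do not show that groups were alike. In limma's F test over the 13 groups all 8 genes passed (adjusted p from 2.89e-05 for Gzmf to 0.015 for Prf1), as did 85.9% of the 13868 genes tested. A count of 8 of 8 is thus close to what the whole array showed. With the pairs as a block 5 of the 8 passed, against 54% of all genes: Gzma (adjusted p = 0.0285), Gzmc (0.00966), Gzme (0.00824), Gzmf (0.0086) and Nkg7 (0.0219), but not Gzmb (0.0657), Gzmd (0.15) or Prf1 (0.255).

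**Figure D2:**
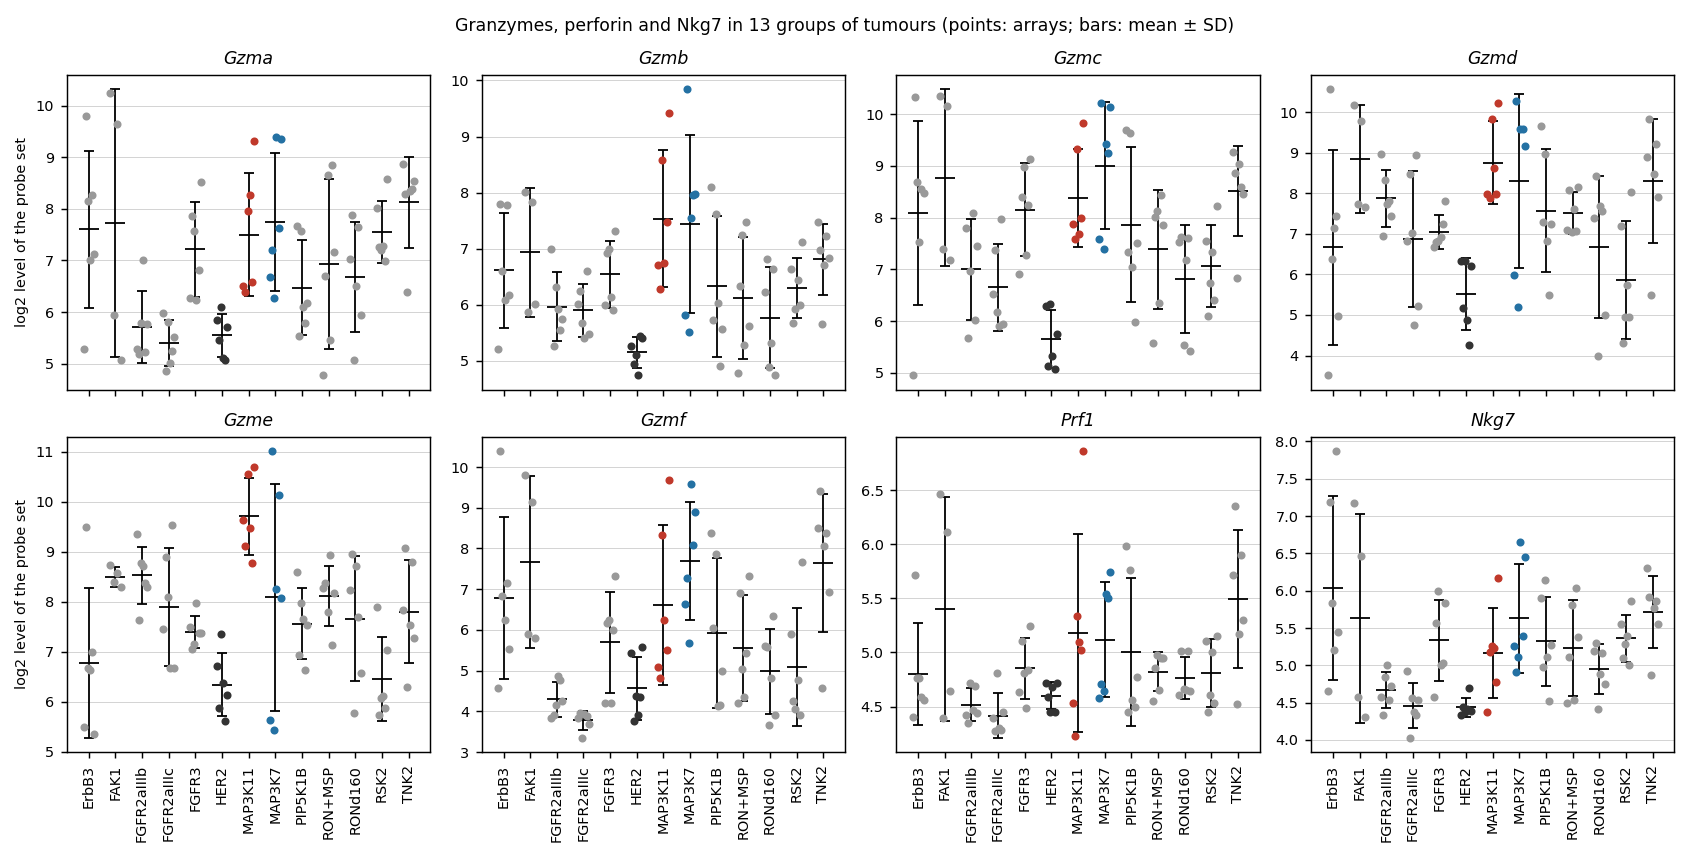
Log2 level of each of the 8 genes (vertical axes, one panel per gene with its own scale) in each array, by group (horizontal axes), with MAP3K11 in red, MAP3K7 in blue, HER2 in black and the other groups in grey; bars are the group mean ± SD (n = 6, FAK1 n = 4). The HER2 arrays sit low and close together for Gzma to Gzmc, and the MAP3K11 arrays sit between 8.78 and 10.69 for Gzme.

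Each group was next set against the equally weighted mean of the other 12, which gave 104 tests for the 8 genes, and limma called 16 of them (adjusted p under 0.05 by Benjamini-Hochberg adjustment over all genes). Over all genes and groups 17.9% were called, so the share of calls among the 8 genes was no larger than that background. With the pairs as a block 3 calls stood, against 6.69% of all tests. These 3 were Gzmc lower in HER2, and Gzmb and Gzme higher in MAP3K11.

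HER2 tumours, in which the model's own oncogene had been put back, had the lowest group mean of Gzmb, Gzmc, Gzmd, Gzme and Nkg7. Limma called 6 of the 8 genes lower there, against 11.1% of all genes called lower (26.6% either way), and the median difference of the 8 was -1.47, against 0.013 for all genes. Gzmc was between 5.07 and 6.33 in the 6 HER2 arrays with a median of 5.54, and it was lower than the mean of the other groups (log2 difference -2.16 ± 0.48 SE, adjusted p = 0.000577 by limma and 0.0134 with the pairs as a block). It was the one HER2 call that stood under the block.

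The other HER2 calls were lost with the block. Gzmb, which cuts and activates caspases, lay between 4.75 and 5.44 in the HER2 arrays (-1.38, limma adjusted p = 0.00776, 0.0602 with the block). Gzmd lay between 4.25 and 6.34 (-1.99, adjusted p = 0.013, 0.112 with the block) and Gzme between 5.62 and 7.35 (-1.51, adjusted p = 0.00947, 0.0712 with the block). Nkg7 stayed between 4.33 and 4.69, in each array below that array's own filter level, and differed by -0.86 (adjusted p = 0.0151 by limma, 0.0738 with the block). Gzma lay between 5.07 and 6.10 (-1.52, adjusted p = 0.016, 0.105 with the block). Its call was lost without HER2 T2 replicate 2 (-1.41, adjusted p = 0.0546), and that of Gzmd without HER2 T3 replicate 1 (-1.74, adjusted p = 0.0526). Gzmf (-1.43) and Prf1 (-0.34) did not pass.

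Genes that mark NK cells were low in the same tumours. Ncr1, the receptor NKp46 that defines NK cells, lay between 4.12 and 4.60 in the HER2 arrays and differed by -0.66 from the other groups (limma adjusted p = 0.0113, 0.121 with the block). Klrd1, the CD94 chain of NK receptors, differed by -1.0 (adjusted p = 0.0237, 0.114 with the block) and Klrk1, the receptor NKG2D, by -0.59 (adjusted p = 0.0379, 0.155 with the block). In a list of 13 NK cell genes, 10 were measured and 6 tested, and these 3 were the ones called, against 11.1% of all genes called lower. The summed level of the list, the mean of its measured genes after each was centred over the arrays, ran from -0.36 to -0.18 in HER2 and from -0.36 to 0.90 over all arrays. How far the NK cell genes account for the granzyme values was not tested.

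MAP3K11 tumours, those of the mice with cachexia, had the highest Gzme of any group. Gzme was between 8.78 and 10.69 with a median of 9.56, and every MAP3K11 array lay above the all-array median of 7.75. The difference from the other groups was 2.14 ± 0.45 (SE, limma adjusted p = 5.02e-05, 0.00144 with the block). Gzmb, between 6.28 and 9.42, was higher by 1.20 ± 0.40 (adjusted p = 0.00853, 0.0423 with the block), and Gzmd, between 7.88 and 10.21, by 1.5 ± 0.62 (adjusted p = 0.0347, 0.148 with the block). Limma called these 3 of 8, against 25% of all genes called higher in MAP3K11, 29.3% lower and 54.2% either way, so the share is not far from that of the whole array. The median difference of the 8 was 0.79 against -0.015 for all genes.

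The 2 MAP3K11 arrays matched as 1 pair carried much of this. Their match was the weakest of all pairs, with an r over the autosomes of 0.473 against a median of 0.957. Whether these 2 arrays came from 1 tumour was not tested. T2 replicate 1 and T3 replicate 2 had Gzmb at 8.58 and 9.42, Gzmf at 8.32 and 9.68 and Gzmg at 9.12 and 10.40. In the other 4 arrays Gzmb was between 6.28 and 7.48, and Gzmf between 4.83 and 6.25. Without T2 replicate 1 the Gzmb difference was 0.97 (limma adjusted p = 0.0544) and that of Gzmd 1.29 (adjusted p = 0.107). Without T3 replicate 2 they were 0.84 (adjusted p = 0.0929) and 1.19 (adjusted p = 0.137). Gzmd also missed the threshold without T2 replicate 2 (1.53, adjusted p = 0.0531). Gzme stayed called whichever array was left out. Each such fit kept the other array of the pair, and leaving out both was not tested. Gzme was at 10.56 and 10.69 in that pair and between 8.78 and 9.63 in the other 4 arrays.

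The other members did not pass in MAP3K11: Gzma differed by 0.60, Gzmc by 0.80, Gzmf by 0.79, Prf1 by 0.29 and Nkg7 by -0.07. Ncr1 lay between 4.29 and 5.08 in these arrays (-0.18 against the other groups, limma adjusted p = 0.452), and Klrd1 between 4.15 and 5.61 (-0.45, adjusted p = 0.262). Ncr1 in the MAP3K11 arrays thus lay on both sides of the filter level (4.68 to 4.86), while their mean Gzme was the highest of the 13 groups. Of 6 NK cell genes tested, 1 rose, the transcription factor gene Eomes (0.60, adjusted p = 2.39e-05, 0.00074 with the block), and 0 fell. Of all genes 25% rose and 29.3% fell.

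The neighbours of Gzme on chromosome 14 were high in MAP3K11 too. Mcpt1, a chymase of mucosal mast cells, was between 6.37 and 9.72 in MAP3K11 and higher by 2.61 ± 0.46 than in the other groups (limma adjusted p = 2.26e-06, 6.85e-05 with the block). Mcpt8, a protease of basophils, was between 6.41 and 8.30 and higher by 1.67 ± 0.31 (adjusted p = 7.3e-06, 0.000876 with the block). Gzmg, which lies between Gzmd and Gzmn, was higher by 1.83 ± 0.70 (adjusted p = 0.024, 0.129 with the block). Mcpt2, from the same stretch, was lower by -1.40 (adjusted p = 0.00436, 0.0401 with the block), so the locus did not move as one. Of the 9 tested genes in the list of other granzymes and chymase-locus proteases, 4 rose and 1 fell, against 25% and 29.3% of all genes. In a list of mast cell genes, 7 were tested, 0 were called higher and 1 lower, the carboxypeptidase gene Cpa3 (-0.97, adjusted p = 0.00804, 0.0757 with the block).

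Among 13 tested genes of granule assembly, release and inhibition, 4 rose and 3 fell in MAP3K11. Of all genes 25% rose and 29.3% fell there, so these counts are close to those of the whole array. The largest was Serpinb9b, a relative of the granzyme B inhibitor Serpinb9, which lay between 6.77 and 7.63 in MAP3K11 with no overlap with the range in HER2 (5.5 to 5.96) or MAP3K7 (5.24 to 5.77), and differed by 1.57 ± 0.09 from the other groups (limma adjusted p = 1.81e-24). Stx11, a syntaxin needed for granule release, was higher by 0.69, and Srgn, the proteoglycan that holds granzymes in the granule, lower by -0.71. Ctsw, a protease of cytotoxic lymphocytes, was lower by -0.53. Of 11 tested regulators and cytokines of killer cells 2 rose and 5 fell, among them Il15, the cytokine on which NK cells depend (-1.55), Il12rb1, a chain of the interleukin-12 receptor (-0.84), Id2, a factor of innate lymphocytes (-0.74), and Il18 (-0.72). With the block, 6 of the 13 genes of the first list and 7 of the 11 of the second stayed called, against 39.3% of all genes. Without the block 54.2% of all genes were called either way. T cell genes rose in 5 of 8 tested, against 25% of all genes, and 3 did so with the block, against 17.3%. The largest were Thy1 (1.58, also made by stromal cells), Icos (0.45), Zap70 (0.31) and Cd8a (0.25, limma adjusted p = 0.0538 with the block). Of the T cell receptor chains, Cd3e rose by 0.19 (adjusted p = 0.0161, 0.178 with the block) and Cd3d did not pass (0.09, 0.592). Cd3g lay between 3.17 and 3.71 in MAP3K11.

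MAP3K7 tumours, which carried the kinase TAK1, had high granzymes that were unequal between pairs. Gzmc was between 7.40 and 10.21 (1.47 ± 0.48 against the other groups, limma adjusted p = 0.019), Gzmf between 5.67 and 9.58 (1.95 ± 0.61, adjusted p = 0.0139), and Gzmb between 5.52 and 9.85 (1.10 ± 0.40, adjusted p = 0.0351). These 3 of 8 compare with 12.2% of all genes called higher (24.4% either way), and the median of the 8 was 0.94 against -0.004 for all genes. With the block limma called 0 of the 3 (adjusted p = 0.114, 0.118 and 0.159), with 3 of the 8 genes at an unadjusted p under 0.05. NK cell genes did not pass except Itga2, an integrin chain (0.41, adjusted p = 0.0108, 0.0837 with the block).

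The 3 MAP3K7 pairs differed in which granzymes were high. In T1 replicate 1 and T2 replicate 1, Gzme was at 5.64 and 5.43 and Gzmd at 5.99 and 5.19, in the lower part of the whole series. In T1 replicate 2 and T3 replicate 1, Gzme was at 11.01 and 10.13, Gzmb at 9.85 and 7.95, and Gzma at 7.20 and 7.62. In T2 replicate 2 and T3 replicate 2, Gzma was at 9.39 and 9.36, Gzmf at 9.58 and 8.89, Nkg7 at 6.65 and 6.45, and Gzme at 8.26 and 8.08. The last of these pairs had Klrd1 at 7.03 and 6.80, against 4.70 and 5.30 in the pair with the highest Gzme. One group thus held a pair with little Gzme, a pair with the highest Gzme but not the highest Klrd1, and a pair with high Gzma and high Klrd1.

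The MAP3K7 calls depended on single arrays. The Gzmb call was lost without T1 replicate 2 (0.60, limma adjusted p = 0.314), T2 replicate 2 (1.06, 0.0723), T3 replicate 1 (1.01, 0.0978) or T3 replicate 2 (1.01, 0.0804). That of Gzmc was lost without T1 replicate 2 (1.20, adjusted p = 0.0967), T3 replicate 1 (1.42, 0.0515) or T3 replicate 2 (1.24, 0.0707), and that of Gzmf without T2 replicate 2 (1.53, 0.0836). Without both T1 replicate 2 and T3 replicate 1 the differences were 0.37 for Gzmb, 1.08 for Gzmc and 1.99 for Gzmf, and limma called none of the 3 (adjusted p = 0.599, 0.192 and 0.0553).

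Some genes of other cell types were called in these groups as well. Of all genes, 11.1% were called lower and 15.5% higher in HER2, 29.3% and 25% in MAP3K11, and 12.3% and 12.2% in MAP3K7. The lists below are short, and some counts, such as 2 of 6 epithelial genes higher in MAP3K11, are near these shares. Of 7 macrophage genes tested, 2 fell in HER2, among them Adgre1, the F4/80 antigen (-0.80, limma adjusted p = 0.00266, 0.0192 with the block), and 4 fell in MAP3K11 (Adgre1 by -0.72, adjusted p = 0.00232, 0.00978 with the block), while 2 rose in MAP3K7, Cd68 (0.60, adjusted p = 0.00694, 0.0507 with the block) and Csf1r (0.42, 0.0484, 0.166 with the block). The summed level of the macrophage list ran from -0.62 to -0.22 in HER2 and in MAP3K11 and from -0.16 to 0.86 in MAP3K7. Over all arrays its r was 0.67 with Nkg7, 0.61 with Gzma and -0.09 with Gzme. Of 5 B cell genes 2 fell in HER2, 3 rose in MAP3K11 and 2 rose in MAP3K7. Of 6 epithelial genes 2 rose in HER2, 2 rose in MAP3K11 and 2 fell in MAP3K7, and the summed level of that list ran from 0.14 to 0.91 in HER2 and from -0.67 to 0.61 in MAP3K7. The part of these cell types in the granzyme values was not tested.

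Single calls were made in 4 further groups, and each was lost with the block. Nkg7 was higher in ErbB3 by 0.86 ± 0.28 (limma adjusted p = 0.0147, 0.0736 with the block), against 15% of all genes called higher there (28.6% either way). Its 6 ErbB3 arrays lay between 4.66 and 7.87, and the 2 highest formed a pair, T3 replicate 2 at 7.87 and T1 replicate 2 at 7.19. These were the only arrays with clear T cell receptor RNA: Cd3g, a chain of that receptor, was at 7.67 and 5.29 in them, against a median of 3.21 and no more than 3.89 in the others. Gzmk, a granzyme of T cells, was at 7.96 and 5.77, and T1 replicate 2 also had the lowest Krt18, at 5.22. Without T3 replicate 2 the Nkg7 difference was 0.52 (adjusted p = 0.182), and without T1 replicate 2 it was 0.59 (adjusted p = 0.151).

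Gzmf was higher in TNK2 by 2.02 ± 0.62 (limma adjusted p = 0.0391, 0.303 with the block; 3.26% of all genes called higher, 1.9% lower and 5.16% either way). It lay between 4.57 and 9.40 with 5 of 6 arrays at 6.93 or above, and leaving out any 1 of those 5 ended the call (1.67 to 2.17, adjusted p = 0.0675 to 0.154). The sixth, T1 replicate 3, was the lowest TNK2 array for all 8 genes. Gzmf was lower in FGFR2aIIIc by -2.22 ± 0.61 (adjusted p = 0.0419, 0.471 with the block; 0.534% of all genes called lower, 1.62% either way). All 6 of its arrays lay between 3.35 and 3.97, below the filter level. That call was lost without any 1 of the 6 FGFR2aIIIc arrays or without FAK1 T2 replicate 1 (-2.27 to -2.13, adjusted p = 0.0504 to 0.113). Gzme was lower in RSK2 by -1.44 ± 0.45 (adjusted p = 0.0192, 0.133 with the block; 9.52% called lower, 8.73% higher and 18.2% either way), between 5.74 and 7.89, and the call was lost without RSK2 T1 replicate 2 (-1.27, 0.0652) or T2 replicate 2 (-1.37, 0.0651).

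In the remaining 6 groups limma called 0 of the 8 genes against the other groups. FAK1 had 4 genes at an unadjusted p under 0.05 and its differences ran from 0.45 to 1.95, all above 0 (8.42% of all genes were called, 3.42% higher). FGFR2aIIIb also had 4 at that level, with differences from -1.72 for Gzmf to 0.85 for Gzme (11.9% called). FGFR3 (2.6% called, 1.35% higher and 1.25% lower), PIP5K1B (18.7%, 7.45% lower), RON+MSP (8.57%, 4.18% higher) and RONd160 (23.3%) had 0 at an unadjusted p under 0.05. The lack of a call does not show that these groups were alike. Some values lay so near the threshold that leaving out 1 of the 76 arrays made a call. Gzmf in FGFR2aIIIb (-1.72, limma adjusted p = 0.051) was called in 21 of the 76 such fits, and Gzma in FGFR2aIIIb (-1.35, adjusted p = 0.0586) in 5. Gzma in FGFR2aIIIc (-1.68, adjusted p = 0.0605) was called in 7, Prf1 in TNK2 (0.67, 0.0516) in 14 and Gzmd in RSK2 (-1.64, 0.0547) in 9. Gzme in ErbB3 (-0.99, adjusted p = 0.0923) was called only without ErbB3 T1 replicate 2, where it was -1.54, and Prf1 in MAP3K11 against HER2 (0.58, 0.0888) only without MAP3K11 T1 replicate 2, where it was 0.76.

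**Figure D3:**
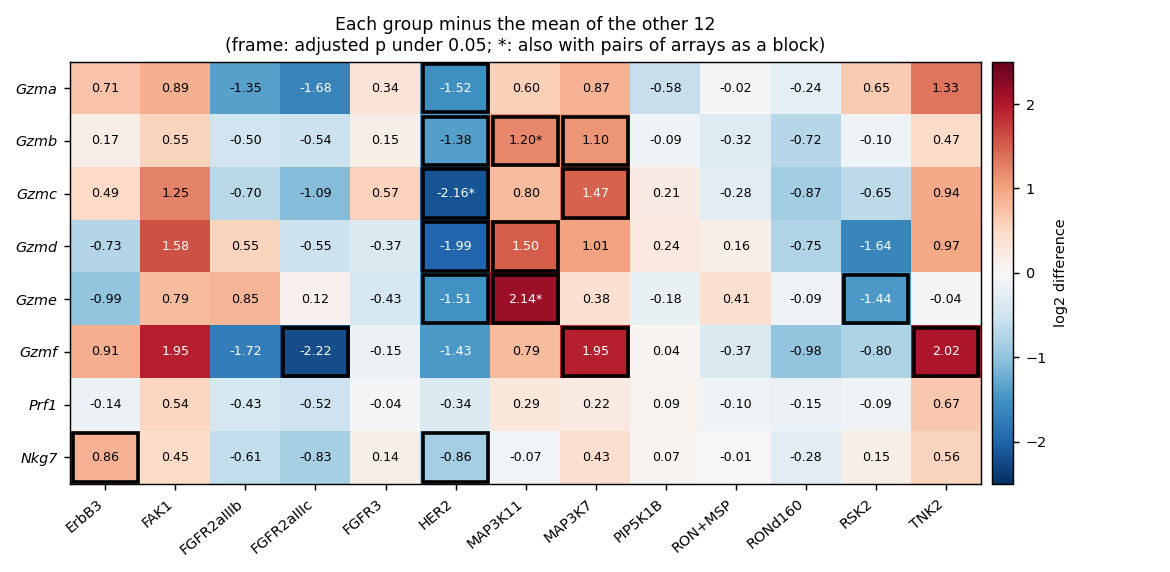
Log2 difference between each group (columns) and the mean of the other 12 for each gene (rows), from red (higher) to blue (lower); frames mark an adjusted p under 0.05 by limma and stars the calls that stood with the pairs as a block. The 16 frames include 6 in HER2, 3 in MAP3K11 and 3 in MAP3K7, and the 3 stars are Gzmc in HER2 and Gzmb and Gzme in MAP3K11.

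The design text names MAP3K7 and MAP3K11 as the kinases tested in this model, so they were compared with each other and with HER2. Against HER2, MAP3K11 was higher in 6 of the 8 genes (21.5% of all genes were called higher, 27.7% lower and 49.2% either way), and in 4 with the block (13.9% of all genes higher, 33.3% either way). The sizes were 3.37 ± 0.61 for Gzme (limma adjusted p = 5.22e-06), 3.22 ± 0.84 for Gzmd (0.00104), 2.73 ± 0.65 for Gzmc (0.00037) and 2.38 ± 0.54 for Gzmb (0.000193), and these 4 stayed called with the block. Gzma was higher by 1.96 (adjusted p = 0.0115, 0.0629 with the block) and Gzmf by 2.05 (0.0337, 0.14 with the block). Every MAP3K11 array lay above every HER2 array for Gzma, Gzmb, Gzmc, Gzmd and Gzme, a separation that 31.3% of all genes showed in one direction or the other. Prf1 (0.58) and Nkg7 did not pass. The Gzma call was lost without MAP3K11 T3 replicate 2 (1.60, adjusted p = 0.0504).

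The Gzmf call against HER2 was lost without any of 5 arrays (1.46 to 1.95, limma adjusted p = 0.0578 to 0.151): the 2 MAP3K11 arrays T2 replicate 1 and T3 replicate 2, and the HER2 arrays T1 replicate 2, T2 replicate 2 and T3 replicate 1. Ncr1 was higher in MAP3K11 than in HER2 by 0.44 (adjusted p = 0.18) and Klrd1 by 0.51 (adjusted p = 0.379), and neither passed.

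MAP3K7 was higher than HER2 in 7 of the 8 genes, all but Prf1 (16.4% of all genes were called higher, 20% lower and 36.5% either way), and in 4 with the block (8.08% of all genes higher, 18.3% either way). Gzmc differed by 3.35 ± 0.65 (limma adjusted p = 5.42e-05, 0.00222 with the block), Gzmf by 3.12 ± 0.82 (0.00218, 0.0341), Gzmb by 2.29 ± 0.54 (0.000703, 0.0111) and Nkg7 by 1.19 ± 0.37 (0.0093, 0.0457). Gzmd (2.77, 0.0732 with the block), Gzma (2.21, 0.0543) and Gzme (1.75, 0.0967) were called only without it. The arrays did not overlap for Gzma, Gzmb, Gzmc, Gzmf and Nkg7, as for 14.1% of all genes. Here Klrd1 rose with the granzymes, by 1.48 (adjusted p = 0.00931, 0.0574 with the block), and Ncr1 by 0.77 (0.0203, 0.145). Both comparisons share the HER2 arrays, so they are not independent of each other.

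The Gzme call of MAP3K7 against HER2 rested on 1 pair. It was lost without T1 replicate 2 (1.17, limma adjusted p = 0.123) or T3 replicate 1 (1.28, 0.102), and without both it was 0.47 (0.58). Gzmd was then 1.93 (0.102), also no longer called.

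Set directly against MAP3K7, MAP3K11 was higher in Gzme alone (1.62 ± 0.61, limma adjusted p = 0.0295), while 37.4% of all genes were called between these groups, 16.6% higher and 20.8% lower, and the call was lost with the block (0.12). It was also lost without MAP3K11 T2 replicate 1 (1.46, adjusted p = 0.0676), MAP3K11 T3 replicate 2 (1.38, 0.0857), MAP3K7 T1 replicate 1 (1.09, 0.159) or MAP3K7 T2 replicate 1 (1.06, 0.166). For 0 of the 8 genes were the arrays of the 2 groups apart, against 14.7% of all genes. The other 7 genes differed by -1.07 to 0.45 and did not pass. Klrd1 was lower in MAP3K11 by -0.98 (0.0893).

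No member was called between the 2 FGFR2 forms or between the 2 RON groups. Between the FGFR2 forms that end their ligand-binding domain in the IIIb or IIIc exon, differences ran from 0.04 to 1.01, with 0 of 8 called by limma and 0 at an unadjusted p under 0.05 (0.166% of all genes were called). RONd160 and RON+MSP differ by label in the receptor and in the added ligand MSP, which cannot be told apart. Between them differences ran from -0.84 to -0.05, again with 0 called and 0 at an unadjusted p under 0.05 (12.3% of all genes called). Between T2 or T3 and T1 the members differed by -0.34 to 0.34, with 0 called, 0 at an unadjusted p under 0.05, and 0% of all genes called.

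Across the 76 arrays the 8 genes fell along a gradient between 2 patterns. These correlations are descriptions: the points include paired arrays, and groups differ in number of high arrays. Gzma and Nkg7 rose and fell together (r = 0.89), as did Gzmb and Gzmc (0.89) and Gzmd and Gzme (0.87), whereas Gzme was nearly unrelated to Nkg7 (0.14) and weakly related to Gzma (0.26). Gzmf followed Prf1 (0.85), Gzmc (0.85) and Gzma (0.82) more than its relative Gzme (0.40). After the group means were removed the order was alike, with 0.37 for Gzma and Gzme and 0.88 for Gzmd and Gzme.

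Ncr1, which the choice of the 8 genes did not use, showed the same gradient. Its r was 0.85 with Gzma, 0.84 with Nkg7, 0.72 with Gzmc and with Gzmf, 0.70 with Prf1, 0.59 with Gzmb, 0.45 with Gzmd and 0.15 with Gzme. Over the 38 pair means these were 0.91 for Gzma, 0.93 for Nkg7, 0.77 for Gzmc, 0.47 for Gzmd and 0.14 for Gzme. Ranks gave a rho of 0.85 for Gzma and 0.12 for Gzme, and without the 2 arrays farthest from the median Ncr1 level r was 0.83 and 0.08. Klrd1 ordered the genes likewise, from 0.92 for Nkg7 and 0.81 for Gzma down to 0.11 for Gzme.

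T cell markers varied little between most arrays. Cd3e stayed between 4.82 and 5.70 in all 76 arrays, Cd8a between 4.80 and 5.54, Cd4 between 5.09 and 6.11, and Ifng, the cytokine of activated NK and T cells, between 2.24 and 4.03. Even in ErbB3 T3 replicate 2, where Cd3g was at 7.67, Cd3e was at 5.67 and Cd8a at 5.18. A narrow range of these 2 probe sets thus does not show that T cell RNA varied little. The 3 probe sets for bacterial trp controls, which mouse RNA does not hold, had a median of 2.95. Of 18 T cell genes 15 were measured and 8 passed the filter. Their summed level lay between -0.28 and 0.34 in every array but 1, ErbB3 T3 replicate 2 (0.99), and its r with the 8 genes was 0.10 to 0.42.

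Gzme rose instead with Mcpt8 (r = 0.70) and Mcpt1 (0.57). With the group means removed r was 0.70 for Mcpt8 and 0.38 for Mcpt1, and over pair means 0.71 and 0.61. Gzma had -0.16 with Mcpt8 and -0.39 with Mcpt1, and Nkg7 had -0.32 and -0.49. In the 12 FGFR2aIIIb and FGFR2aIIIc arrays Ncr1 stayed between 4.32 and 4.71, below the filter level, while Gzme lay between 6.67 and 9.54. In FGFR2aIIIc T1 replicate 2, Gzme was at 8.89 and Gzmd at 8.47 while Gzma (4.86) and Nkg7 (4.03) were among the lowest of all arrays. Gzme was thus high in some arrays with Ncr1 below the filter level. A low Ncr1 value does not show that NK cells were absent. Which cells gave the Gzme signal was not tested, and its probe set can cross-react.

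**Figure D4:**
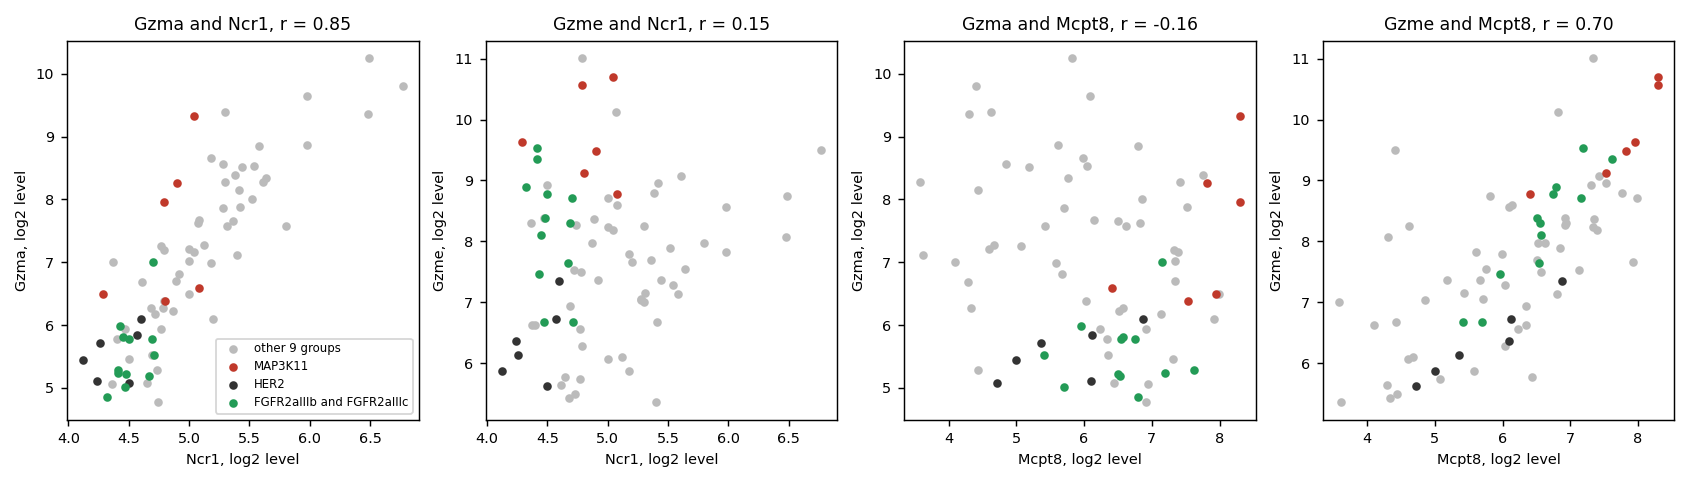
Scatter plots of Gzma and Gzme (vertical axes, log2 level) against Ncr1 and Mcpt8 (horizontal axes, log2 level) in the 76 arrays, with MAP3K11 in red, HER2 in black, both FGFR2 groups in green and the other 9 groups in grey. Gzma climbs with Ncr1 (r = 0.85) but not with Mcpt8 (-0.16), and Gzme climbs with Mcpt8 (0.70) but not with Ncr1 (0.15).

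Position on chromosome 14 matched this only in part. Going along the order, r with Gzme was 0.57 for Mcpt1, -0.11 for Mcpt2 and for Mcpt4, 0.70 for Mcpt8, 0.54 for Ctsg, 0.87 for Gzmd, 0.54 for Gzmg, 0.31 for Gzmn, 0.40 for Gzmf, 0.54 for Gzmc and 0.61 for Gzmb. Over the same genes r with Ncr1 was -0.47 for Mcpt1, -0.34 for Mcpt2, -0.21 for Mcpt4 and for Mcpt8, 0.40 for Ctsg, 0.15 for Gzme, 0.45 for Gzmd, 0.54 for Gzmg, 0.07 for Gzmn, 0.72 for Gzmf and for Gzmc and 0.59 for Gzmb. Gzmb, Gzmc and Gzmf, at one end, thus followed Ncr1 most and the Mcpt genes at the other end ran below 0 with it, with Gzmn and Ctsg as exceptions on their sides. Gzmc and Gzmf, the 2 printed starts that hold TGACGTCA, had r of 0.72 with Ncr1, and Gzmd and Gzme, whose windows lack it, 0.45 and 0.15. Gzmg, whose window holds it too, had 0.54, less than Gzmb at 0.59, which lacks it, so the letters and r with Ncr1 did not run in parallel. The genes just past Gzmb, from Atp12a to Mphosph8, had r between 0.00 and 0.28 with Gzme.

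**Figure D5:**
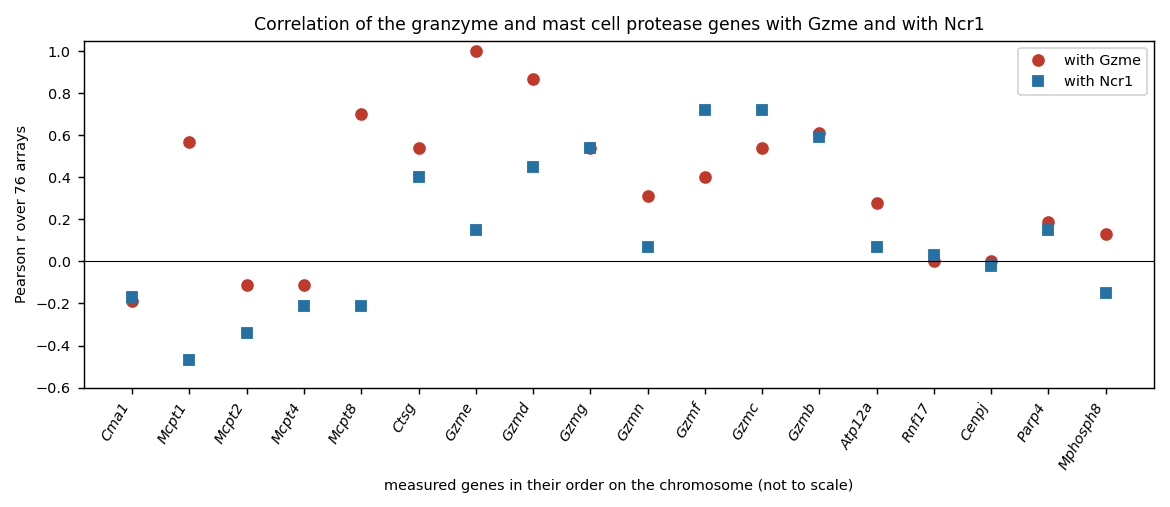
Pearson r over the 76 arrays with Gzme (red circles) and with Ncr1 (blue squares) for the measured genes in their order along chromosome 14, not to scale. Mcpt1 and Mcpt8 are high with Gzme (0.57 and 0.70) and below 0 with Ncr1, while Gzmf and Gzmc are higher with Ncr1 (0.72 each) than with Gzme (0.40 and 0.54).

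Several members were most like another member, as the values above show: Gzmd for Gzme (r = 0.87), Gzmc for Gzmb (0.89) and Nkg7 for Gzma (0.89). With the 8 members left out, the 3 tested genes with the highest r over the 76 arrays were found for each. Tmsb15a, a thymosin, came first for Gzmf (r = 0.93), Prf1 (0.87) and Gzma (0.86), the last being followed by Ncr1 and Klrd1. Cst7, which encodes the cysteine protease inhibitor cystatin F of cytotoxic cells, came first for Gzmc (0.82) and Gzmb (0.79). Gzmg was first for Gzmd (0.77) and second for Gzmf (0.90) and Prf1 (0.84). Nkg7 was most like Klrd1 (0.92), Ncr1 (0.84) and Tor1aip1 (0.80). For Gzme the 3 were Mcpt8 (0.70), Mcpt-ps1 (0.68) and Slc20a1 (0.67).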

How the data were processed

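Total RNA of the 76 tumour samples was extracted with a Qiagen RNeasy kit and hybridised as biotinylated cRNA, per the labels' protocols. The authors deposited log2 values, 1 for each of 45101 probe sets and array (1.77 to 14.18), and affy, with no version, is the tool listed in the submitters' processing notes. Background correction, normalization and summarisation were not given in the sources used here, and no further scaling was applied.

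Of the probe sets 34958 name 1 gene and 932 several. Each of 18194 genes was read from its probe set with the highest mean, and 13868 passed the filter of a level above the array's 40th percentile in at least 4 arrays. A single limma model (limma 3.58.1 and statmod 1.5.0 in R 4.3.3, files read with the package data.table, version 1.17.8) held a term for the group and a term for T1, T2 or T3, with 61 residual degrees of freedom. Two-sided p-values were adjusted by the Benjamini-Hochberg method across the 13868 genes, and calls were made below 0.05. Pairs of arrays, matched with networkx 3.6.1, entered an alternative fit as a random block. No label says that tumours came from separate animals, so p-values reflect only how far these arrays vary, and part of that may be technical. The number of arrays limits the precision.

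Alternatives changed the filter, the scaling between arrays, the probe sets of a gene, the T term, a block for replicate number, the fitted arrays and the array left out. The fit without ErbB3 T3 replicate 2, the array with the most T cell RNA, was added after the data were seen. Replicate numbers did not pair arrays across groups: deviations from the group means had a median r of -0.002 between arrays with the same number. Named genes are the 8 members, the 3 tested genes outside the members with the highest r to each, and at most 4 called genes by size in each list and comparison. Ncr1, Klrd1 and the T cell chains were followed throughout as defining markers. The members and lists were chosen with earlier results of these data known. Promoters were aligned with Biopython 1.88. The gene named in the title of the series is not reported.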

Additional observations from a re-analysis of the deposited data

Results flagged for a closer look

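In 104 combinations of gene and group the array farthest from the others was compared with its group's whole range by Dixon's criterion, which chance alone passes in about 1 of 20 groups, and 6 passed. Gzma was at 7.01 in FGFR2aIIIb T2 replicate 2, where the next array of the group was at 5.78. TNK2 T1 replicate 3 was low in Gzma (6.38, next 8.28) and in Gzmc (6.84, next 8.46). Prf1 was at 5.72 in ErbB3 T1 replicate 2 (next 4.76) and at 4.81 in FGFR2aIIIc T2 replicate 1 (next 4.45). Nkg7 was at 4.69 in HER2 T3 replicate 1, where the next array was at 4.44, both below the filter level of their arrays.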

How the results depend on the processing

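Taking the pairs as a random block reduced the members called from 8 to 5 in the F test, from 16 to 3 over each group against the other 12, from 1 to 0 for MAP3K11 against MAP3K7 and from 7 to 4 for MAP3K7 against HER2. The share of all genes called fell as well, in the same order from 85.9% to 54%, 17.9% to 6.69%, 37.4% to 21.6% and 36.5% to 18.3%. The loss of calls was thus not particular to the members. No share over all genes was computed for the alternatives that follow, so their counts cannot be set against one. Leaving out 1 array at a time gave 1 to 3 members for MAP3K11 against the other 12 groups and 0 to 1 for MAP3K11 against MAP3K7. With the replicate number as a block 8 members passed the F test, 19 calls were made over each group against the other 12, 2 members were called for MAP3K11 against them, 1 for MAP3K11 against MAP3K7 and 6 for MAP3K11 against HER2. No value changed sign past the threshold in the alternatives run. The paired arrays, the undefined T labels, the shared sequence of Gzmd and Gzme and levels of Prf1, Nkg7 and Gzmf near the filter level limit what these arrays resolve.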

Other observations

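Serpinb9b, related to the inhibitor of granzyme B, lay between 6.77 and 7.63 in the 6 MAP3K11 arrays and did not exceed 6.22 in the other 70. The highest level outside MAP3K11 was in RSK2 T1 replicate 1. Prdm1, a regulator of lymphocyte differentiation, and Id2, a factor of innate lymphocytes, were higher in MAP3K7 than in the other groups by 0.89 (limma adjusted p = 0.0049, 0.0342 with the pairs as a block) and 0.75 (0.00477, 0.0245 with the block).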
